A study of Homo sapiens with 9 samples.

Results

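The 8 genes described here encode chaperones and proteases of the mitochondrion: the chaperonin HSPD1 and its partner HSPE1, the matrix HSP70 protein HSPA9 and its exchange factor GRPEL1, the HSP90 protein TRAP1, and the proteases LONP1 and CLPP with the CLPP partner CLPX. They were chosen by name, with earlier results of these data known. All 8 were found among the 19930 genes with values and among the 12884 genes tested. RNA sequencing compared libraries labelled MDA-MB-453, a breast cancer cell line, in which the long noncoding RNA LINC00673 was targeted by either of a pair of siRNAs, si-LINC00673-1 or si-LINC00673-2, with libraries transfected with the negative control si-NC. Each group held 3 libraries. All cells, si-NC included, were transfected with Lipofectamine and harvested after 48 h, and nothing in the labels says whether the 3 libraries of a group came from separate cultures, so the P-values measure only the spread between these libraries. The comparison asks how the RNA of mitochondrial protein quality control differed after transfection with either siRNA.

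HSPE1 rose with both siRNAs, to 1.85-fold of the si-NC mean with si-LINC00673-1 and to 2.11-fold with si-LINC00673-2. HSPA9 fell with both, to 0.71-fold and 0.60-fold, and LONP1 fell to 0.57-fold and 0.67-fold. The other 5 members did not reach the 1.3-fold limit with either siRNA. HSPD1, which forms the chaperonin with HSPE1, stood at 0.96-fold and 1.09-fold of si-NC.

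Most mitochondrial proteins are made in the cytosol, enter the organelle unfolded and are folded in the matrix. HSPA9 pulls in and folds incoming chains in an ATP cycle that GRPEL1 resets by releasing ADP, and the chaperonin HSPD1 encloses proteins in a chamber that HSPE1 closes as a lid. Proteins that are damaged or left without partners are degraded by LONP1, or by the CLPP chamber after CLPX has unfolded them, and the genes of this system are known as targets of the mitochondrial unfolded protein response.

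The level of LINC00673 was not analysed here, so the knockdown itself was not checked. The libraries carried RNA of epithelial genes, with KRT8, KRT18, KRT19, EPCAM, CDH1 and TFF3 at 84.7 FPKM or more in every library, but defining markers of MDA-MB-453, a luminal line, were absent or low. FOXA1 was listed at 0 to 0.04 FPKM and GATA3 at 0.41 to 0.88, whereas ERBB2 stood at 11.8 to 17.8. The data thus go against the label for these markers, and the cells are named here by their label only. Of 14 markers of other cell types in the table, 11 were below 1 FPKM in all libraries. Their summed level ranged from 39.3 to 40.5 FPKM in si-NC, 55.1 to 58.9 with si-LINC00673-1 and 63.8 to 69.1 with si-LINC00673-2, most of it from CD68, at 32.8 to 59.3 FPKM, and its part in the results was not tested. In bulk RNA, fewer cells of a type and less RNA per cell cannot be told apart.

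The values are FPKM, fragments divided by transcript length and by the number of mapped fragments, so levels of different genes can be set side by side per length. The libraries held an estimated 25900000 to 27800000 fragments in the si-NC group, 24500000 to 26000000 in the si-LINC00673-1 group and 23900000 to 25200000 in the si-LINC00673-2 group. At this depth the members were covered by 917 fragments or more in each library. Log2 fold changes come from limma on log2(FPKM + 1), which understates the change of low genes, and the 1.3-fold limit was applied to them. The folds of the si-NC mean given above for single members are ratios of mean FPKM. A gene is said to have risen or fallen where the fold change was at least 1.3 and the unadjusted P at most 0.05, the criteria of the study, and adjusted P denotes the Benjamini-Hochberg value over all 12884 genes. With si-LINC00673-1, 1 of 8 members rose, against 11.1% of all genes, and 2 of 8 fell, against 15.6%. With si-LINC00673-2, 1 of 8 rose, against 11% of all genes, and 2 of 8 fell, against 23.1%. Over the 8 members the median log2 fold change was -0.050 for the first siRNA and -0.0080 for the second, and over all genes tested it was 0.0032 and -0.095. The si-NC libraries serve in both comparisons, so their calls are not independent of each other.

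The members spanned a wide range of levels. In the si-NC libraries HSPD1 had the highest mean, 422 FPKM, above 98.8% of the genes tested. It was followed by TRAP1 at 157 FPKM, HSPA9 at 104, HSPE1 at 80.1, LONP1 at 50.0, CLPP at 43.6, GRPEL1 at 19.7 and CLPX at 14.8. No neighbours in this order overlapped in their single libraries. The order differed with either siRNA: HSPE1 stood above HSPA9, and CLPP above LONP1, without overlap. HSPE1 and TRAP1 overlapped with si-LINC00673-1, whereas with si-LINC00673-2 every HSPE1 value was above every TRAP1 value.

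**Figure D1:**
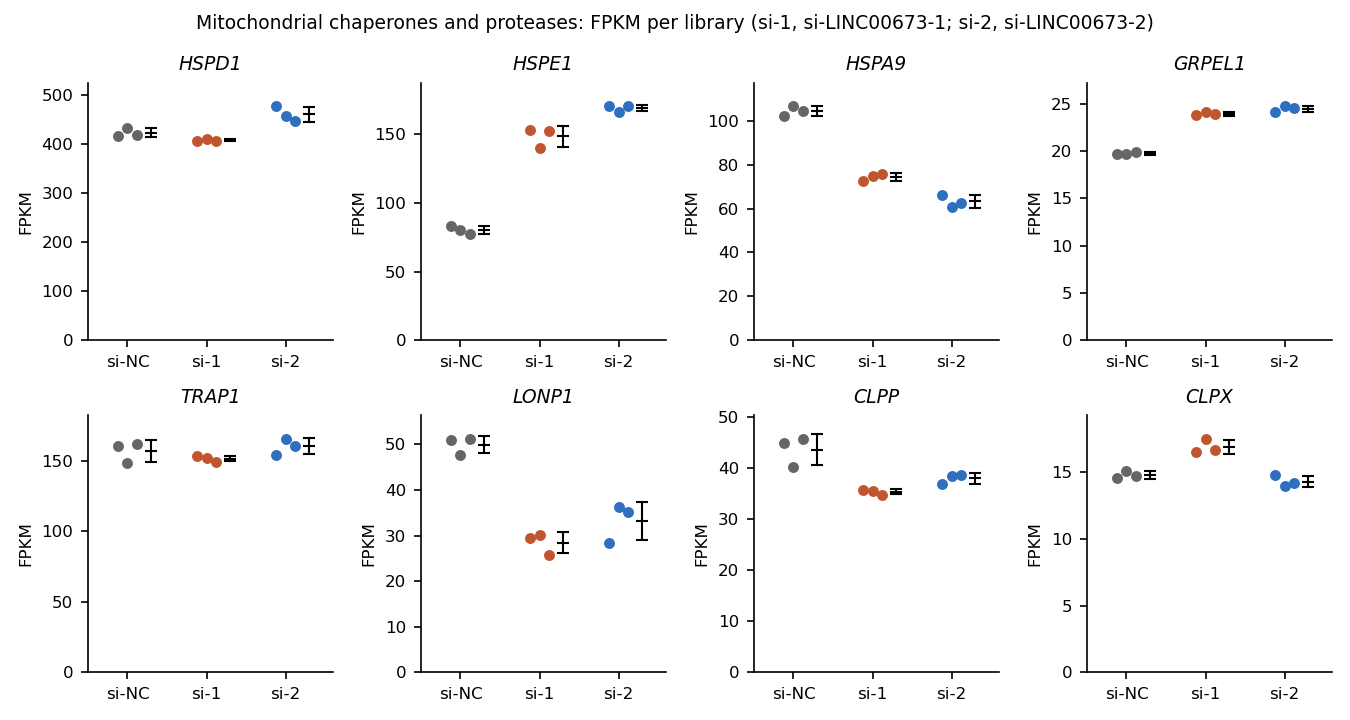
FPKM of the 8 members (y axis, from 0) in each of the 3 libraries of si-NC (grey), si-LINC00673-1 (orange) and si-LINC00673-2 (blue), with the mean and SD in black beside them. HSPE1 was above the si-NC libraries with both siRNAs, HSPA9 and LONP1 were below them, and TRAP1 overlapped with si-NC in both.

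Promoters of 6 members, in 8 windows, were found in the RefSeq table of GRCh38.p14, each running from 250 bases before to 50 bases after a transcription start. HSPD1 and HSPE1 are transcribed away from each other from neighbouring starts, an arrangement known to place regulatory elements between them. The heat-shock element, bound by HSF1, was searched as GAANNTTCNNGAA and, in its shorter form, as GAANNTTC, where N is any base, on both strands. The longer form occurred in 1 of the 8 windows, the first of HSPD1, against 0.490% of all 35116 promoters of the same length. It matched there in a pair of overlapping places, at -245 to -233 and at -240 to -228 from the HSPD1 start of this window. These lie 294 and 299 bases before the only HSPE1 start used here, that of RefSeq. They lie downstream of the start of the second HSPD1 window, chr2:197500274. By GENCODE, the stretch that holds them overlaps exons of both HSPD1 and HSPE1. The shorter form, found in 6.77% of all promoters, occurred in the same window only, inside the longer one. The composite element of C/EBP and ATF factors, TGATGCAAT, was in none of the 8 windows and in 0.236% of all promoters, which says only that these letters are not there. The E-box CACGTG, bound by factors such as MYC and USF1, was searched after the sequences had been seen. It was in 4 of the 8 windows, those of HSPE1, HSPA9, the first of LONP1 and the second of HSPD1, against 7.26% of all promoters, and the HSPD1 and HSPE1 windows share 1 site. The stretches that hold these matches are shown because they belong to the chaperonin pair and to the 3 members that changed. Each is given 5′ to 3′ on the strand of its gene, with the match in capitals.
HSPD1 heat-shock element, chr2:197500061-197500090, reverse strand: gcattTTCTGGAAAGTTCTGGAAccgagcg
HSPE1 E-box, chr2:197500345-197500374, forward strand: gggtgattttttCACGTGtcgccagggccg
HSPA9 E-box, chr5:138575403-138575432, reverse strand: cgcccctcacccCACGTGgttggaggtttc
LONP1 distal E-box, chr19:5720341-5720370, reverse strand: ctcacagccttcCACGTGaccggaaaaggc
LONP1 proximal E-box, chr19:5720178-5720207, reverse strand: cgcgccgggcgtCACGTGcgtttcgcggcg

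Of the chaperonin pair, HSPE1 rose and HSPD1 did not pass the test. HSPE1 (NCBI gene 3336), the co-chaperonin that closes the folding chamber, stood at 83.0, 80.2 and 77.0 FPKM in the si-NC libraries. With si-LINC00673-1 it stood at 153, 139.7 and 152 FPKM, and at 170.2, 166 and 170.2 with si-LINC00673-2. Every library of either siRNA was thus well above every si-NC library. The mean went from 80.1 ± 3.0 FPKM (SD, n = 3) to 148 ± 7.51 and to 169 ± 2.35. The log2 fold change was 0.88 ± 0.041 (SE) with si-LINC00673-1 (adjusted P = 1.22e-07) and 1.07 ± 0.041 with si-LINC00673-2 (adjusted P = 2.01e-08).

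HSPD1 (NCBI gene 3329), the chaperonin itself, stood at 415, 433 and 419 FPKM with si-NC. The values were 406, 409.6 and 407 with si-LINC00673-1 and 476, 456 and 447 with si-LINC00673-2. All libraries of the first siRNA were just below the si-NC libraries and all of the second just above, so that the groups did not overlap although the differences were small. With si-LINC00673-1 the log2 fold change was -0.051, with a 95% confidence interval from -0.12 to 0.013 and adjusted P = 0.145. It was 0.12, from 0.058 to 0.19, with si-LINC00673-2, where the adjusted P was 0.00355 but the fold change stayed under 1.3.

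The ratio of HSPE1 to HSPD1 within a library is not affected by a factor common to all genes of the library. It was 0.200, 0.185 and 0.184 in the si-NC libraries. With si-LINC00673-1 it was 0.377, 0.341 and 0.374, and with si-LINC00673-2 it was 0.357, 0.364 and 0.381. All libraries of both siRNAs were above all si-NC libraries, by 1.92-fold and 1.94-fold, and those of the siRNAs overlapped. In the exact permutation test, two-sided, both differences from si-NC had P = 0.1, the smallest value that 3 against 3 libraries allow (adjusted P = 0.133 over the 12 tests of ratios), and the siRNAs differed by a log2 ratio of 0.014 (exact P = 0.8).

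HSPD1 and HSPE1 lie head to head on chromosome 2 in GRCh37, the build of the deposited coordinates, HSPD1 from 198351308 to 198364998 on the reverse strand and HSPE1 from 198364721 to 198368187 on the forward strand. The genes overlap by 278 bases. Whether the libraries kept strand is not given in the sources used here, so reads in this overlap cannot be assigned to 1 of the genes. HSPE1 also shares 17.0% of its 100-base windows with other genes of GENCODE release 29. These are 3 processed copies, which were not in the table, and the readthrough gene HSPE1-MOB4, which was listed at 0.06 to 0.47 FPKM in the 9 libraries. HSPD1 shares 3.73% of its windows with pseudogenes, none of which was in the table.

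Of the matrix HSP70 pair, HSPA9 fell while its exchange factor did not. HSPA9 (NCBI gene 3313), the import motor and folding chaperone, stood at 102, 107 and 105 FPKM in the si-NC libraries. It stood at 72.5, 75.0 and 75.8 with si-LINC00673-1 and at 66.3, 60.7 and 62.6 with si-LINC00673-2. Every library of either siRNA was below every si-NC library, and those of si-LINC00673-2 were the lowest. The mean went from 104 ± 2.12 FPKM (SD, n = 3) to 74.4 ± 1.74 and to 63.2 ± 2.85. The log2 fold change was -0.48 ± 0.037 (SE) with si-LINC00673-1 (adjusted P = 2.51e-06) and -0.72 ± 0.037 with si-LINC00673-2 (adjusted P = 1.28e-07). The gene lies on chromosome 5, from 137890571 to 137911318 on the reverse strand, and 0.130% of its windows were shared with another gene.

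GRPEL1 (NCBI gene 80273), the nucleotide exchange factor of HSPA9, stood at 19.6, 19.7 and 19.9 FPKM with si-NC. It stood at 23.7, 24.2 and 23.9 with si-LINC00673-1 and at 24.1, 24.7 and 24.5 with si-LINC00673-2. Both siRNA groups were above all si-NC libraries and overlapped with each other. Its log2 fold change was 0.27 ± 0.028 (SE; adjusted P = 2.34e-05) and 0.30 ± 0.028 (adjusted P = 8.52e-06), under the 1.3-fold limit in both. After scaling of each library to the median ratio of its genes, the value with si-LINC00673-2 was 0.39, past the limit. GRPEL1 lies on chromosome 4, from 7060622 to 7069937 on the reverse strand.

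The ratio of GRPEL1 to HSPA9 was 0.192, 0.185 and 0.190 with si-NC. It was 0.328, 0.322 and 0.316 with si-LINC00673-1 and 0.364, 0.407 and 0.392 with si-LINC00673-2. The 3 groups did not overlap, with si-LINC00673-2 the highest. The ratio was 1.70-fold and 2.05-fold of si-NC, and each of the 3 pairwise differences had an exact permutation P of 0.1 (adjusted P = 0.133).

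TRAP1 (NCBI gene 10131), the HSP90 protein of mitochondria, stood at 161, 148 and 162 FPKM with si-NC. The values were 153, 152 and 149.5 with si-LINC00673-1 and 154, 166 and 161 with si-LINC00673-2. Either siRNA group overlapped with si-NC. The 95% confidence interval of the log2 fold change was -0.14 to 0.039 with si-LINC00673-1 and -0.057 to 0.12 with si-LINC00673-2, so that a change past the 1.3-fold limit, 0.38 on the log2 scale, lay outside both (adjusted P = 0.30 and 0.501). TRAP1 lies on chromosome 16, from 3708038 to 3767598 on the reverse strand. By GENCODE release 29, 29.3% of the exon bases of TRAP1 overlap DNASE1 on the opposite strand.

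Of the proteases, LONP1 fell with both siRNAs. LONP1 (NCBI gene 9361), the ATP-dependent protease that degrades oxidised and misfolded matrix proteins, stood at 50.9, 47.7 and 51.3 FPKM with si-NC. It stood at 29.5, 30.1 and 25.8 with si-LINC00673-1 and at 28.4, 36.2 and 35.1 with si-LINC00673-2. All libraries of the siRNAs were below all si-NC libraries, and the first library of si-LINC00673-2 lay among those of si-LINC00673-1. The mean went from 50.0 ± 1.95 FPKM (SD, n = 3) to 28.5 ± 2.30 and to 33.2 ± 4.21. The log2 fold change was -0.79 ± 0.087 (SE; adjusted P = 2.81e-05) and -0.58 ± 0.087 (adjusted P = 0.000183). LONP1 lies on chromosome 19, from 5691845 to 5720463 on the reverse strand. Its transcripts are rich in GC, above those of 80.8% of the tested genes with a GC value. After a correction of each library for its trend with GC content the value with si-LINC00673-1 was -0.47, and that with si-LINC00673-2 was -0.22, short of the 1.3-fold limit.

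CLPP (NCBI gene 8192), the proteolytic chamber of the CLPXP protease, stood at 44.9, 40.2 and 45.8 FPKM with si-NC. The values were 35.7, 35.5 and 34.8 with si-LINC00673-1 and 36.8, 38.4 and 38.8 with si-LINC00673-2. Both siRNA groups were below all si-NC libraries, whose spread was the wider. The log2 fold change was -0.29 (95% confidence interval -0.40 to -0.19, adjusted P = 0.000343) with si-LINC00673-1 and -0.19 (-0.30 to -0.088, adjusted P = 0.00411) with si-LINC00673-2, both short of the limit. CLPP lies on the same chromosome, from 6361463 to 6368915 on the forward strand. Its GC content was above that of 81.7% of genes, and with the GC correction the values turned to 0.057 and 0.19.

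CLPX (NCBI gene 10845), the unfoldase that feeds CLPP, stood at 14.6, 15.1 and 14.7 FPKM with si-NC. It stood at 16.5, 17.5 and 16.6 with si-LINC00673-1 and at 14.7, 13.9 and 14.1 with si-LINC00673-2. The first siRNA lay above the si-NC libraries, whereas the second overlapped with them. Its log2 fold change was 0.18 ± 0.037 (SE; adjusted P = 0.00185) and -0.047 ± 0.037 (adjusted P = 0.284). CLPX lies on chromosome 15, from 65440557 to 65477758 on the reverse strand. The value with si-LINC00673-2 was 0.050 with median ratio scaling and 0.0029 with the GC correction.

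Within a library, the ratio of CLPX to CLPP was 0.324, 0.375 and 0.320 with si-NC. It was 0.462, 0.492 and 0.477 with si-LINC00673-1 and 0.400, 0.362 and 0.365 with si-LINC00673-2. Only the first siRNA separated from si-NC, at 1.41-fold (exact permutation P = 0.1, adjusted P = 0.133), and it also stood above the second (exact permutation P = 0.1). The partners differ in GC content, 41.3% for CLPX and 63.4% for CLPP, and after the GC correction the log2 fold changes with si-LINC00673-1 were 0.10 for CLPX and 0.057 for CLPP, close to each other. The ratio of LONP1 to CLPP was 1.13, 1.19 and 1.12 with si-NC. It was 0.826, 0.847 and 0.743 with si-LINC00673-1 and 0.772, 0.941 and 0.907 with si-LINC00673-2. Both siRNA groups were below si-NC, at 0.70-fold and 0.76-fold (exact permutation P = 0.1 each), and overlapped with each other. The GC content of their transcripts was 62.9% and 63.4%.

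**Figure D2:**
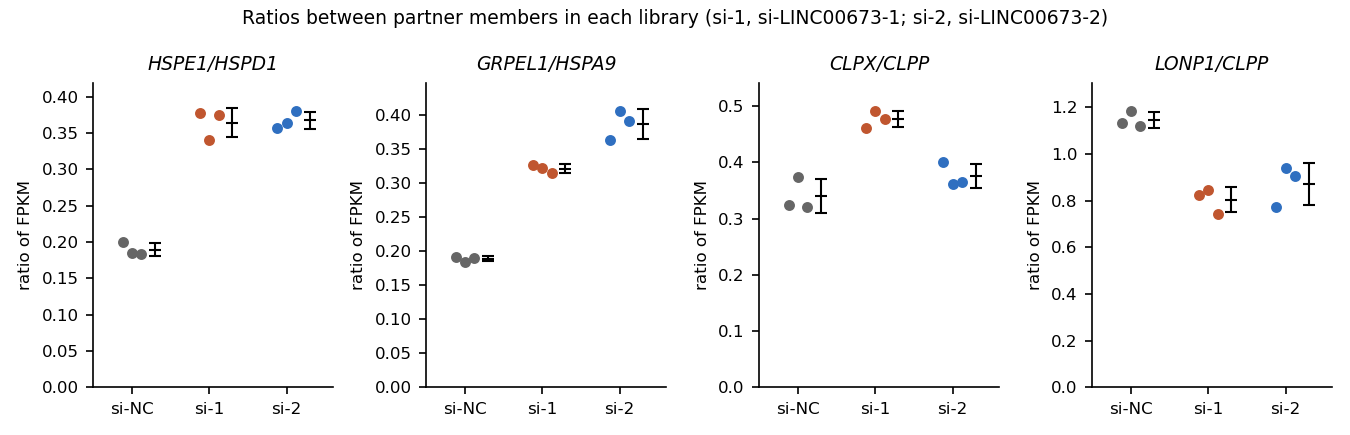
Ratio of FPKM between partner members (y axis, from 0) in each library of si-NC (grey), si-LINC00673-1 (orange) and si-LINC00673-2 (blue), with the mean and SD in black. HSPE1 to HSPD1 and GRPEL1 to HSPA9 were higher than in every si-NC library with both siRNAs, and LONP1 to CLPP was lower.

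The siRNAs were also compared directly. No member differed between them by 1.3-fold, so 0 of 8 were higher and 0 of 8 lower with si-LINC00673-2, against 2.19% and 5.45% of all genes. By limma's unadjusted P, 5 of the 8 differed at 0.05, against 52% of all genes, and by its adjusted P, 4 of the 8, against 44%, so these counts are no result about the members. HSPE1 was at a log2 difference of 0.19 ± 0.041 (SE; adjusted P = 0.00500) and HSPD1 at 0.17 ± 0.029 (adjusted P = 0.00125), both in favour of si-LINC00673-2. HSPA9 was at -0.23 ± 0.037 (adjusted P = 0.000922) and CLPX at -0.23 ± 0.037 (adjusted P = 0.00116). The sizes depended on the scaling. After median ratio scaling and after the GC correction, HSPE1 stood at 0.29 and 0.27, HSPD1 at 0.28 and 0.29, HSPA9 at -0.13 and -0.12, and CLPX at -0.13 and -0.10. For LONP1 the difference was 0.21, with a 95% confidence interval from 0.018 to 0.41 that reaches past the limit (adjusted P = 0.0728). The intervals for TRAP1, from -0.0082 to 0.17, CLPP, from -0.0031 to 0.21, and GRPEL1, from -0.034 to 0.093, stayed within it.

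**Figure D3:**
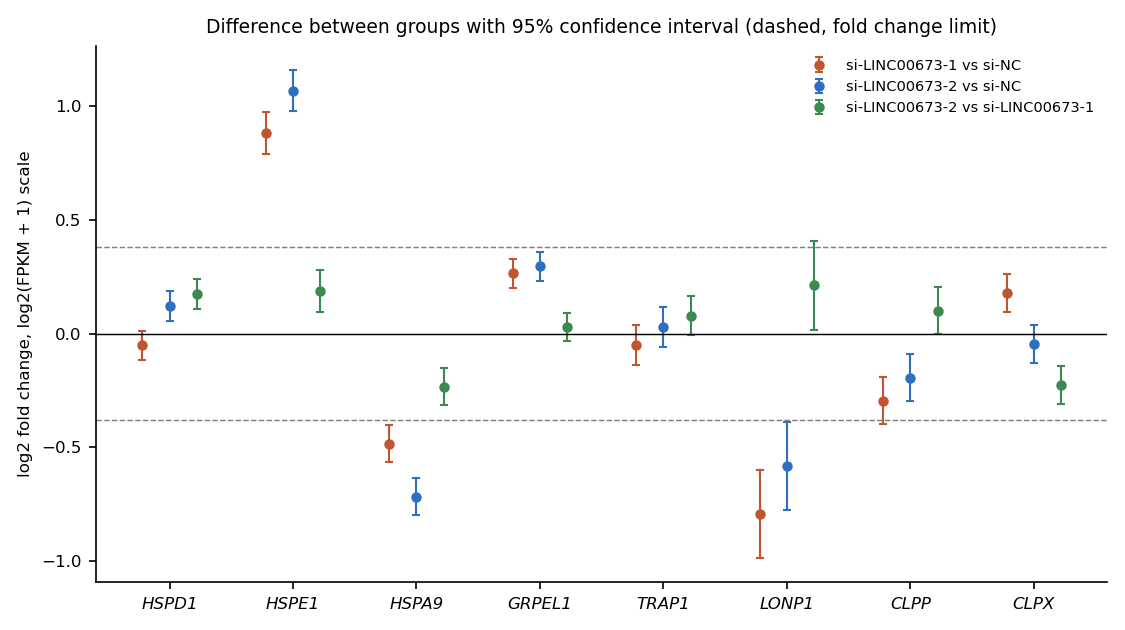
Log2 fold change of each member (y axis, on the log2(FPKM + 1) scale) with its 95% confidence interval, for si-LINC00673-1 against si-NC (orange), si-LINC00673-2 against si-NC (blue) and si-LINC00673-2 against si-LINC00673-1 (green), with 3 libraries per group. The dashed lines mark the 1.3-fold limit, past which lay HSPE1, HSPA9 and LONP1 with both siRNAs and no member between the siRNAs.

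Separation of single libraries was common in these data. The libraries of si-LINC00673-1 did not overlap with si-NC for 7 of 8 members, against 70% of all genes, and those of si-LINC00673-2 for 6 of 8, against 73%. Between the siRNAs 6 of 8 members did not overlap, against 53.7% of all genes. These shares lie near those of all genes, so the separation alone is no result about the members.

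GC content moved with the groups. Of 5 bins of genes ordered by GC content, the highest had a median log2 fold change of -0.30 with si-LINC00673-1 and of -0.35 with si-LINC00673-2, and the lowest one of 0.080 and -0.057. LONP1 and CLPP lie in the highest bin and TRAP1 in the next, while HSPD1, HSPA9, GRPEL1, HSPE1 and CLPX lie lower. With the GC correction HSPE1 stood at 0.84 and 1.11 and HSPA9 at -0.56 and -0.68. TRAP1 went from -0.049 to 0.067 with si-LINC00673-1 and from 0.031 to 0.21 with si-LINC00673-2. Median ratio scaling moved the median of all genes by 0.088 with si-LINC00673-2, and HSPE1, HSPA9 and LONP1 then stood at 1.17, -0.62 and -0.48. The split of all called genes with si-LINC00673-2 went from 32.2% higher to 46.3% with this scaling and to 51.4% with the GC correction. What made GC content move with the groups was not tested.

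**Figure D4:**
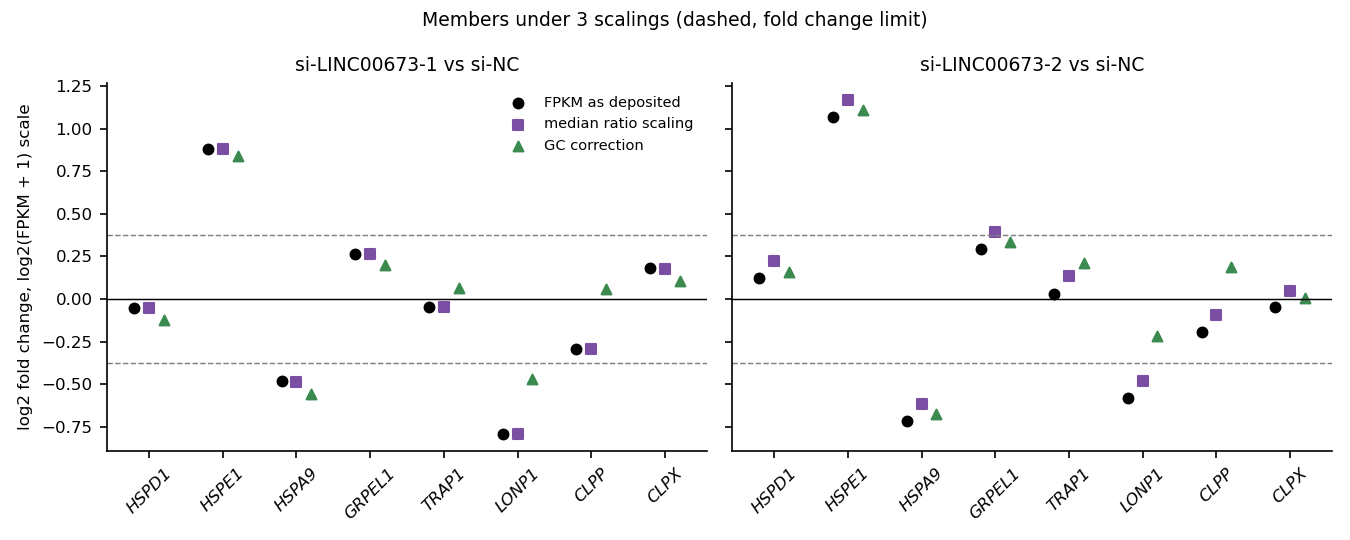
Log2 fold change of each member against si-NC (y axis) for si-LINC00673-1 (left) and si-LINC00673-2 (right), from FPKM as deposited (black circles), after median ratio scaling (purple squares) and after GC correction (green triangles). HSPE1 and HSPA9 lay past the dashed 1.3-fold limit in all 3, whereas LONP1 with si-LINC00673-2 stood at -0.58, -0.48 and -0.22.

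Related genes were examined in 6 lists compiled from general knowledge, with earlier results of these data known. The counts stand beside all genes tested, of which 11.1% rose and 15.6% fell with si-LINC00673-1. With si-LINC00673-2, 11% of all genes rose and 23.1% fell. The list of other chaperones and co-chaperones of mitochondria held 18 tested genes, not all of them folding factors. Of these, 3 rose and 4 fell with si-LINC00673-1, and 2 rose and 5 fell with si-LINC00673-2, with a median log2 fold change of -0.13 in both. With si-LINC00673-2 the median was -0.035 after median ratio scaling and 0.0048 after the GC correction, which left 2 that rose and 3 that fell. Those that rose with both were SSBP1, at 0.51 and 0.47, and the matrix cyclophilin PPIF at 0.45 and 0.47. SSBP1 binds mitochondrial single-stranded DNA and is not a folding factor. Of the helpers of HSPA9 in this list, DNLZ and TIMM44 fell with both siRNAs. HSCB fell with si-LINC00673-1 only (-0.47 and -0.33) and DNAJC19 with si-LINC00673-2 only (-0.37 and -0.49). PAM16 (-0.36 and -0.21), DNAJC15 (-0.16 and -0.15), DNAJA3 (0.017 and 0.12) and GRPEL2 (-0.018 and -0.027) did not pass the test. DNLZ, which keeps HSPA9 soluble, went from a mean of 6.22 FPKM to 3.02 and 2.86 (-0.85 and -0.91), and TIMM44, which tethers HSPA9 to the import channel, from 22.7 to 12.6 and 13.7 (-0.80 and -0.69). FKBP8, an immunophilin of the outer membrane, was at -0.67 and -0.51. After the GC correction DNLZ stood at -0.21 and -0.29 and FKBP8 at -0.19 and -0.018, short of the limit, while TIMM44 stayed past it.

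Of 20 other proteases and peptidases, 1 rose and 1 fell with si-LINC00673-1 and 2 rose and 2 fell with si-LINC00673-2. MIPEP, which trims imported matrix proteins, rose by 0.56 and 0.54. HTRA2, a protease of the intermembrane space, was at -0.44 and -0.65, and at -0.25 with si-LINC00673-1 after the GC correction. The membrane proteases did not pass the test: YME1L1 was at 0.11 and -0.011 and AFG3L2 at -0.11 and -0.088.

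The import machinery, 29 tested genes, was split. With si-LINC00673-1, 6 rose and 4 fell, and with si-LINC00673-2, 6 rose and 6 fell, or 10 and 3 after the GC correction. Genes that rose with both siRNAs were the cytosolic co-factor TOMM34, at 0.88 and 0.84, and the inner membrane components TIMM23 (0.64 and 0.45), TIMM17A (0.51 and 0.48) and TIMM21 (0.53 and 0.42), with TOMM5 of the outer membrane. Those that fell with both were the small intermembrane space chaperones TIMM13 (-0.83 and -0.66) and TIMM9 (-0.55 and -0.66), the sulfhydryl oxidase GFER (-0.82 and -0.66) and TIMM29 (-0.44 and -0.53). TIMM29 with either siRNA, and TIMM13 and GFER with si-LINC00673-2, came short of the limit after the GC correction.

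More stress regulators fell than rose, which was also so over all genes tested. Of 16 tested, 8 fell and 1 rose with si-LINC00673-1 and 9 fell and 2 rose with si-LINC00673-2, with a median of -0.42 and -0.48. ATF5, a transcription factor linked to the mitochondrial unfolded protein response, went from 4.70 FPKM to 1.40 and 1.64 (-1.25 and -1.10). The genes of the amino acid response ASNS (-2.20 and -2.44), CHAC1 (-1.86 and -2.70) and TRIB3 (-1.67 and -1.89) fell with both siRNAs. ATF4, which drives that response, was at 358 FPKM with si-NC and at 278 and 296 with the siRNAs, -0.36 and -0.27, under the limit. DDIT3, the CHOP factor, was at 0.23 with si-LINC00673-1 and rose by 0.80 with si-LINC00673-2, and PPP1R15A, which reverses translation arrest, rose by 0.47 and 1.07. After the GC correction 6 of the 16 fell with each siRNA.

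Most cytosolic heat-shock genes rose. Of 17 tested, 14 rose and 0 fell with either siRNA, 12 of them with both, with a median of 0.73 and 1.02. By limma's unadjusted P below 0.05, 1 of the 17 was lower with si-LINC00673-1 and 0 with si-LINC00673-2. HSPA1A was at 1.83 and 4.22 and HSPA1B at 1.83 and 4.54, although these near-identical copies share reads and their separate values are uncertain. The co-chaperone DNAJB1 went from 66.7 FPKM to 186 and 652 (1.47 and 3.27) and HSPH1 from 19.99 to 52.5 and 91.5 (1.35 and 2.14). HSP90AA1 rose by 1.18 and 1.44, while HSP90AB1 was at -0.084 and -0.0082, and HSPA8 was at 0.36 and rose by 1.02 with si-LINC00673-2. HSF1, which drives these genes, was at 10.4 FPKM with si-NC and at 5.60 and 5.73 with the siRNAs (-0.83 and -0.78, adjusted P = 0.0151 and 0.0184), and after the GC correction it did not pass the test, at -0.45 and -0.37. Beside this list, HSPE1 stood at 0.88 and 1.07 and HSPD1 at -0.051 and 0.12. The heat-shock element lies between the HSPE1 start and the first HSPD1 start, chr2:197499840, but downstream of the second HSPD1 start, chr2:197500274. It is beyond the 250 bases searched before HSPE1, so the windows cannot assign it to either gene. By GENCODE, the stretch that holds it also overlaps exons of both genes.

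Genes of mitochondrial mass and biogenesis mostly did not pass the test, and neither did most of all genes tested. Of 30 tested, 2 rose and 2 fell with si-LINC00673-1 and 1 rose and 4 fell with si-LINC00673-2. After the GC correction the counts were 2 and 4 with the first siRNA and 3 and 2 with the second. The nuclear receptor ESRRA fell by 1.19 and 1.20 on the log2 scale and the ADP/ATP carrier SLC25A5 by 0.67 and 0.81. Citrate synthase (CS) was at 0.16 and 0.12 and the mitochondrial transcription factor TFAM at 0.13 and -0.084.

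**Figure D5:**
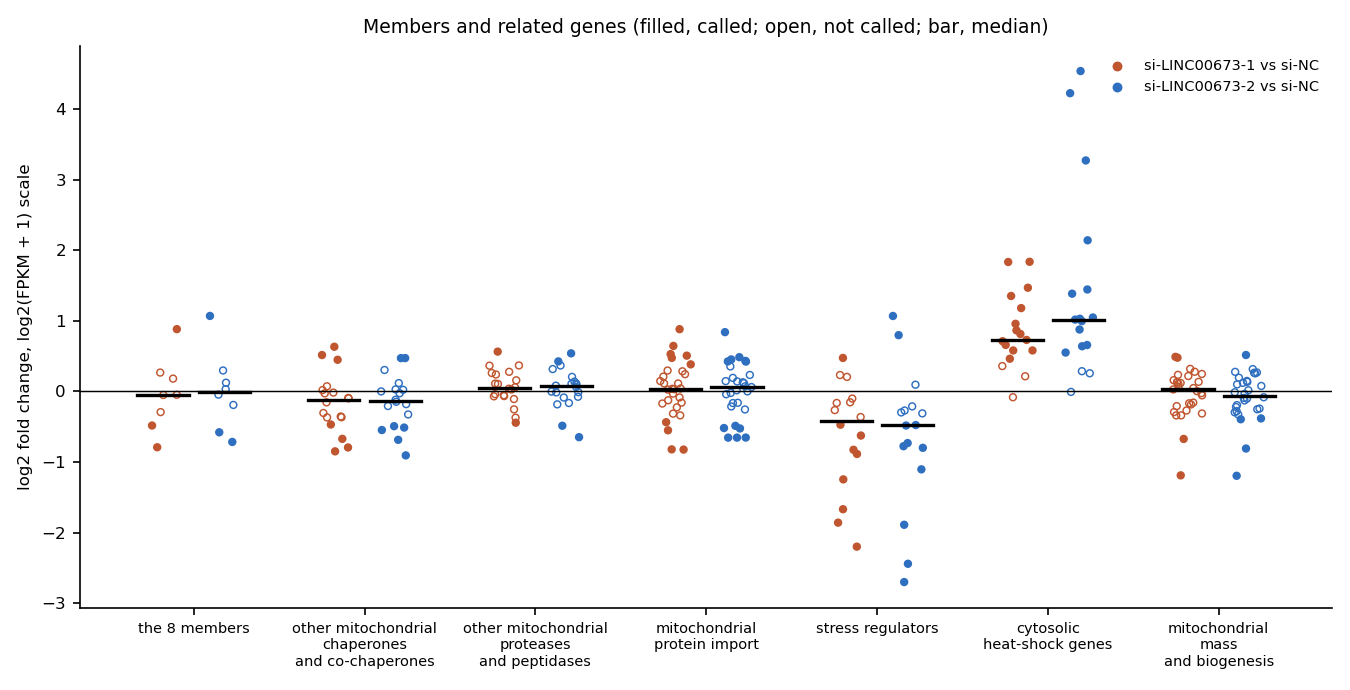
Log2 fold change against si-NC (y axis) of the 8 members and of the tested genes of 6 related lists, for si-LINC00673-1 (orange) and si-LINC00673-2 (blue). Filled points passed the 1.3-fold and P limits, open points did not, and bars are medians, which lay at -0.050 and -0.0080 for the members and at 0.73 and 1.02 for the cytosolic heat-shock genes.

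The genes whose pattern was most like that of each member were taken from the 5848 known genes that averaged 10 FPKM or more. The measure was the root mean square distance of log2(FPKM + 1), centred on the si-NC mean, over the 9 libraries. For HSPE1 these were the heat-shock co-chaperone DNAJA1, at a distance of 0.067, and TIPARP, at 0.068. For HSPA9 they were HSD17B11 (0.031) and BORA (0.032), and for LONP1 SELENOH (0.053) and AURKAIP1 (0.054). MKRN2 (0.027) and COX15 (0.028) were nearest to HSPD1, TSSC1 (0.018) and MAFG (0.021) to TRAP1, and DIAPH2 (0.024) and NSMCE1 (0.024) to GRPEL1. SLC3A2 (0.030) and ABL1 (0.034) were nearest to CLPP, and NOL4L (0.026) and AP1G1 (0.028) to CLPX. No member was among the nearest of another. The partners HSPD1 and HSPE1 were at a distance of 0.77. This placed HSPD1 at rank 2440 of the 5848 genes by nearness to HSPE1, and HSPE1 at rank 5653 by nearness to HSPD1. HSPD1 and TRAP1 were at 0.084, at ranks 252 and 375 from each other, and HSPA9 and LONP1 at 0.24, at ranks 799 and 489.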

How the data were processed

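RNA of 9 libraries labelled MDA-MB-453, 3 per group, was sequenced on a BGISEQ platform, and groups were taken from the labels. The authors deposited 1 table of FPKM per gene and library, rounded to 2 decimals and given 2 times with equal values. The submitters' processing notes name Bowtie2 version 2 and GRCh37.p13 without a role. The counting tool and the strandedness are not given in the sources used here. Log2 ratios, P-values and Q-values between groups, also deposited, were not used. Of 19934 lines, 4 without values were left out.

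Genes that averaged 1 FPKM or more were tested on log2(FPKM + 1) with limma version 3.58.1 (lmFit, eBayes with a trend) in R version 4.3.3, in 1 fit of the 9 libraries by group with no covariate. The script was tested on simulated data. Tables were read with pandas 2.3.3, and figures were drawn with matplotlib 3.10.9. Ratios between partners were compared by the exact permutation test of scipy 1.17.1. FPKM hold no counts, so depth was estimated from the steps of low FPKM values of transcripts of 300 to 900 bases. GC content came from GENCODE release 29, for 88.3% of the genes tested, and was removed as a lowess trend per library.

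The members and lists were chosen with earlier results of these data known. From each list, up to 4 genes rising and up to 4 falling with both siRNAs were named, those with the largest mean change, beside ATF4, ATF5, DDIT3, HSF1, HSPA1A, HSPA8, DNAJB1, HSP90AA1, YME1L1, AFG3L2, HTRA2, CS and TFAM, and for each member the 2 nearest genes. TOMM5, HSCB, DNAJC19, PAM16, DNAJC15, DNAJA3, GRPEL2 and HSP90AB1 were named beyond this rule, after their values were seen. The markers and the genes overlapping members are named as checks. Alternatives were an added 0.1 FPKM, no filter, a mean of at least 5 FPKM, adjusted P, fold changes of 1.5 and 2, only the groups compared, a replicate block, median ratio scaling, GC correction, and leaving out each library. LINC00673 is not reported here.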

Additional observations from a re-analysis of the deposited data

Results flagged for a closer look

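The members and named genes below differed between the siRNAs in limma's direct test of si-LINC00673-2 against si-LINC00673-1, with 3 libraries each, and are given as values only. Members are listed at an adjusted P of at most 0.05, and named genes only where the difference also reached 1.3-fold. Other named genes passed the adjusted P without reaching 1.3-fold, such as HSP90AA1 (0.26, limma adjusted P = 0.000168) and ASNS (-0.24, limma adjusted P = 0.000338). Among the members, the log2 difference was 0.17 for HSPD1 (adjusted P = 0.00125) and 0.19 for HSPE1 (adjusted P = 0.00500), with all 3 libraries of si-LINC00673-2 higher. It was -0.23 for HSPA9 (adjusted P = 0.000922) and -0.23 for CLPX (adjusted P = 0.00116), with all 3 libraries lower. None of these 4 reached 1.3-fold.

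Among related genes, the cytosolic heat-shock genes HSPA1B (2.70, adjusted P = 6.66e-07), HSPA1A (2.39, adjusted P = 2.63e-07), DNAJB1 (1.80, adjusted P = 2.53e-08), HSPH1 (0.79, adjusted P = 1.03e-06) and HSPA8 (0.66, adjusted P = 1.22e-06) were higher with si-LINC00673-2 in limma's test. Of the stress regulators, PPP1R15A (0.59, adjusted P = 0.000143) and DDIT3 (0.56, adjusted P = 6.26e-06) were higher and CHAC1 was lower (-0.84, adjusted P = 1.28e-05). The groups did not overlap for any of these genes.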

How the results depend on the processing

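Of 456 alternative values of single members, 441 kept their direction and side of the limits. In many of these settings the direction could not turn, because the log2 fold change of a member stays the same. This holds for the other filters and limits, adjusted P, the replicate block and only the groups compared. It also holds where the library left out belongs to the group not compared. The GC correction turned TRAP1 (0.067) and CLPP (0.057) with si-LINC00673-1, and CLPP (0.19) and CLPX (0.0029) with si-LINC00673-2, and brought LONP1 with si-LINC00673-2 to -0.22, short of the limit. The median ratio scaling turned CLPX with si-LINC00673-2 (0.050) and brought GRPEL1 to 0.39, past the limit. The cause was not tested.

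At a limit of 2-fold, 0 members passed with si-LINC00673-1 and 1, HSPE1, with si-LINC00673-2. At 1.5-fold HSPA9 with si-LINC00673-1 and LONP1 with si-LINC00673-2 came short. Over the 6 lists, 27 genes rose and 19 fell with si-LINC00673-1, 27 and 26 with si-LINC00673-2, and 9 and 2 were higher and lower between the siRNAs. The cytosolic heat-shock list alone gave 14 of those that rose with each siRNA and 6 of those higher between them. Of all genes tested, 11.1% rose and 15.6% fell with si-LINC00673-1, and 11% and 23.1% with si-LINC00673-2. Between the siRNAs 2.19% were higher and 5.45% lower. At 1.5-fold 14 rose with si-LINC00673-1, 16 rose and 15 fell with si-LINC00673-2, and 1 was lower between the siRNAs. At 2-fold the counts were 5 and 5, 10 and 5, and 3 and 0. The shares of all genes at 1.5-fold and 2-fold were not counted, so the counts at these limits are no result about the members or lists. With the GC correction 16 genes of the lists fell with si-LINC00673-2, where 1642 of 11382 genes did.

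Leaving out 1 library moved TRAP1 with si-LINC00673-2 between -0.0096, without si-NC replicate 2, and 0.057. It moved the log2 ratio of HSPE1 to HSPD1 between the siRNAs between -0.032 and 0.040, and the lists' genes lower between them between 2 and 4, the latter without si-LINC00673-1 replicate 3. With 1 mismatch, 2 windows held the 3-unit heat-shock element, 5 the 2-unit form and 8 the E-box, which 6.24%, 63.4% and 64.0% of all promoters did.

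The deviations of same-numbered libraries from their group means correlated at -0.24 to 0.10, and those of differently numbered libraries at -0.21 to 0.27. Deviations from a mean of 3 libraries depend on each other, so these values cannot decide whether libraries were paired. With the replicate block, 3, 3 and 0 members were called, as without it. Of all 12884 genes, 1444 then rose and 2005 fell with si-LINC00673-1, and 1417 rose and 2983 fell with si-LINC00673-2. Between the siRNAs 285 were higher and 703 lower. Each member rested on an estimated 917 or more fragments per library, and 3 libraries per group do not allow an exact P below 0.1.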
